A study of Homo sapiens with 8 samples.

Results

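The genes described here carried at least 1 candidate site of RNA acetylation in wild-type (WT) H1 cells and at least 1 in the same cells with a NAT10 knockdown (NAT10 KD). They were chosen by the gene identifier: a gene belonged when its Ensembl identifier occurred in both site lists. Of 1506 listed genes, 222 did so, or 14.7%. Their sites numbered 284 of 1005 in the WT list and 277 of 950 in the NAT10 KD list, 457 distinct positions of 1851 in all, and 104 of the 1851 (5.62%) were in both lists. The 222 genes were then divided by position. In 97 genes (6.44% of all listed genes) at least 1 site lay at identical chromosome, coordinate and strand in both lists, and in 125 genes (8.30%) the lists held sites only at different positions. These counts are fixed by the choice itself and are a description. The balance of the classes depends on the score: among sites scoring at least 2, 84 genes were in both lists, 55 with a same position and 29 without.

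H1 is an established human embryonic stem cell line. The 8 libraries form 4 groups, with 2 replicates each of cyanoborohydride-treated RNA and of input for either genotype, and the processed values are 1 site list per genotype. WT cells carried no shRNA that the labels name. NAT10 KD cells had been transduced for 48 h with a lentivirus encoding an shRNA against NAT10 and GFP, and the GFP-positive cells were enriched and then grown in TeSR-E8 with puromycin at 0.5 µg/ml, whereas the growth medium given for H1 is PGM1. Sorting, selection and medium therefore cannot be told apart from the loss of NAT10, and no control shRNA is named. Neither list holds a value per replicate, a read count or a conversion level, so the depth is unknown, no value carries a replicate error and no test between genotypes could be made. In these bulk samples, fewer cells with a transcript, less of it per cell and less acetylation cannot be told apart for a site missing from a list.

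N4-acetylcytidine is a cytidine with an acetyl group on its base. The acetyltransferase NAT10 writes it in small-subunit rRNA and in certain tRNAs, and its presence in mRNA has been mapped by several chemistries with differing results. Under sodium cyanoborohydride the acetylated base is reduced and then read partly as T, so candidate sites are C-to-T changes in treated RNA. The best-known sequence context, from archaeal RNA and rRNA, is a C between a C and a G.

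The reference bases around the sites come first, since they show what kind of position was listed. The genome sequence was not used here, but RefSeq windows on GRCh38.p14, the assembly of the lists' hg38 coordinates, cover 250 bases before to 50 after each annotated gene start. Of the distinct sites of genes in both lists, 26 in 19 genes fell in such a window, of their own gene or of a neighbour. These are 10 shared positions, in 9 genes, and 16 positions in 1 list. The 9 genes with a shared position and the near pairs of AASS and PRKAR1A follow as DNA letters of the listed strand, 5′ to 3′, with each listed position in capitals.
PRDX5: ggcagcaagaCggtacagtga
MRPL37: ggtcttgaggCtatcagatcg
SSNA1: gcagccgggaCggggaggtcg
NUP93: ggcacctgagCggcggagacg
CHCHD5: agccctacgcCggcaaaggtc
STX16: agtgagaaggCcggggag
MLF2: gaggaggcggCgtggaaggcc
RPL9: gacagacgttCtttCtttgct
PTS: gcagacagcgCCgggaagatg
AASS: gacaagtcggCgCcccagagc
PRKAR1A: ggcagtaccgCCgccagtgag

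The STX16 stretch ends where its window does. The stretches lie at chr11:64318299-64318319 (PRDX5, plus strand), chr1:54200221-54200241 (MRPL37, plus), chr9:137188788-137188808 (SSNA1, plus), chr16:56730178-56730198 (NUP93, plus), chr2:112584622-112584642 (CHCHD5, plus), chr20:58651315-58651332 (STX16, plus), chr12:6753050-6753070 (MLF2, minus), chr4:39458905-39458925 (RPL9, minus), chr11:112226426-112226446 (PTS, plus), chr7:122144168-122144188 (AASS, minus) and chr17:68515409-68515429 (PRKAR1A, plus). They are genomic sequence, so a splice junction inside a stretch would not show. In PTS, which encodes an enzyme of tetrahydrobiopterin synthesis, both adjacent C were in both lists. In RPL9, a protein of the large ribosomal subunit, the 3′ C was in both lists and the 5′ C in NAT10 KD only. For AASS, a lysine-degrading enzyme, the 5′ C was in WT and the 3′ C, 2 bases on, in NAT10 KD. PRKAR1A, which holds protein kinase A inactive until cAMP binds, had the first of its adjacent C here in WT only and the second in NAT10 KD only.

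All 26 readable positions were C on the listed strand (exact Clopper-Pearson 95% interval 86.8% to 100%), as were all 68 readable positions of genes in 1 list. A call of C-to-T changes requires a C, so this checks the coordinates and strand and is no evidence of acetylation. Both neighbours were readable at all 26. The base after the site was G at 13 of 26, or 50% (29.9% to 70.1%), beside 51.5% of the 66 such sites in genes of 1 list. Every C in the windows of listed genes was followed by G in 27.8%, and every C in the 50 bases after the start in 32.7%. The base before was G at 61.5% of the sites, beside 34.7% and 40.8% of those C. The context CCG, with the site as its middle base, held 4 of the 26 sites, or 15.4% (4.36% to 34.9%), beside 9.64% of every C in the windows of listed genes. It held 7.58% of the sites in genes of 1 list and 10.5% of every C in the 50 bases after the start. The 4 of the 26 are the 3′ member of the PTS pair, the 3′ member of the PRKAR1A pair, CHCHD5 and the NAT10 KD site of ZNRD2 at position 65570631 of chromosome 11. Several of these sites share a stretch of sequence, so they are not independent, and sites far from a start were not read.

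Purines were frequent 5 to 7 bases after the site. Purines made up 81.3% of the 75 bases at these offsets in genes of both lists, beside 47.1% for every C in the windows of listed genes. At offset 7 the base was a purine at 21 of 24 sites (87.5%, exact interval 67.6% to 97.3%) and G at 66.7%, whereas every C had G there in 31.8%. The mean share was 61.2% over the 10 bases before the site, 58.7% over offsets 1 to 4 and 59.4% over offsets 8 to 10. Single offsets before the site varied widely, from 42.3% at 8 and 3 bases before it to 80.8% at 7 bases before, a value as high as those at offsets 5 and 6. Genes in 1 list gave 79.3% over offsets 5 to 7 and 59.7% G at offset 7, with 72.3% purines over offsets 1 to 4. Over those 4 bases shared positions had 70.0% and the genes' positions in 1 list 51.6%. Among the 10 shared positions, offset 7 was a purine in all 10 and G in 8. The offsets were picked after the values were seen.

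**Figure D1:**
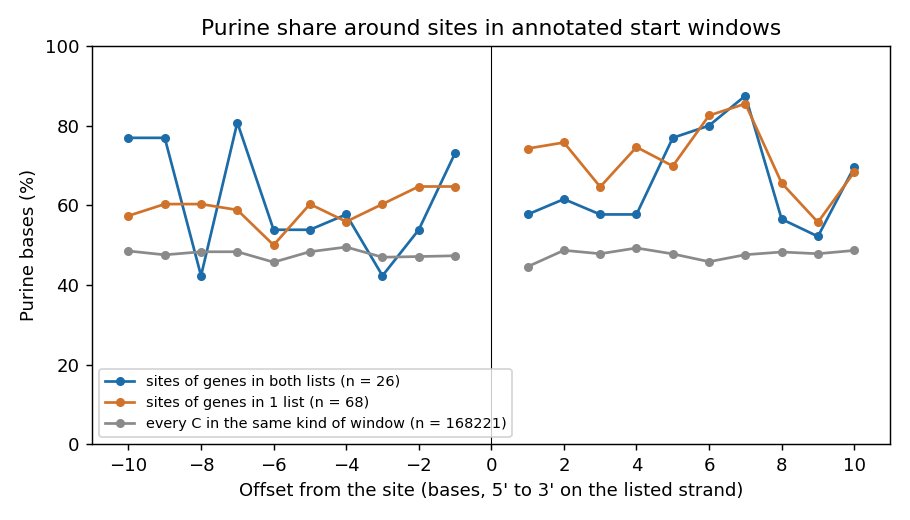
Percentage of purine bases (vertical axis) at each offset from the site (horizontal axis, bases on the listed strand) for sites in RefSeq start windows: 26 sites of genes in both lists, 68 of genes in 1 list, and every C in the windows of listed genes. Both sets of sites peak at offset 7, at 87.5% and 85.5%, where every C gives 47.6%.

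Positions shared by the lists lay more often near the 5′ end of their genes than the genes' other positions did. Of the 102 shared positions inside a RefSeq gene span, 43 lay in the 5′-most 10% of it, or 42.2% (exact interval 32.4% to 52.3%). Positions of the same 222 genes that were in 1 list only lay there in 15.03% of 346 cases (11.4% to 19.2%), and all listed sites in 20.1% of 1809. At the other end the order turned: the 3′-most 10% held 7.84% of shared positions (3.45% to 14.9%) and 23.1% of the positions in 1 list (18.8% to 27.9%). Sites are not replicates of a genotype, and the intervals cover counting error only.

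The annotated starts gave the same picture on a scale of bases. Of 87 shared positions with a start of their own gene upstream, 36 lay within 300 bases of the nearest one, or 41.4% (exact interval 30.9% to 52.4%). For the 294 positions of these genes in 1 list the share was 15.3% (11.4% to 19.9%), and for sites of genes in 1 list 14.9%. Score moved with this distance, since among all listed sites the share within 300 bases was 27.5% at a score of at least 2 and 11.6% below it. At a score of at least 2, shared positions had 43.1% of 65 within 300 bases (30.8% to 56.0%) and the genes' other positions 30.4% of 92 (21.3% to 40.9%). Below a score of 2, shared positions had 36.4% of 22 (17.2% to 59.3%) and the other positions 8.42% of 202 (4.98% to 13.1%). Some positions share a gene and the intervals cover counting error only, so setting them side by side is no test. Shared positions were placed here by their WT score, and the others by the score of their own list. Of all 104 shared positions, 28 were under 2 by WT score and 37 by NAT10 KD score. A division by NAT10 KD score was not made, so the comparison depends on this choice. The nearest to a start were the PTS pair, 8 and 9 bases after it, RPL9 at 11, and PRDX5 and CHCHD5 at 23 each.

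**Figure D2:**
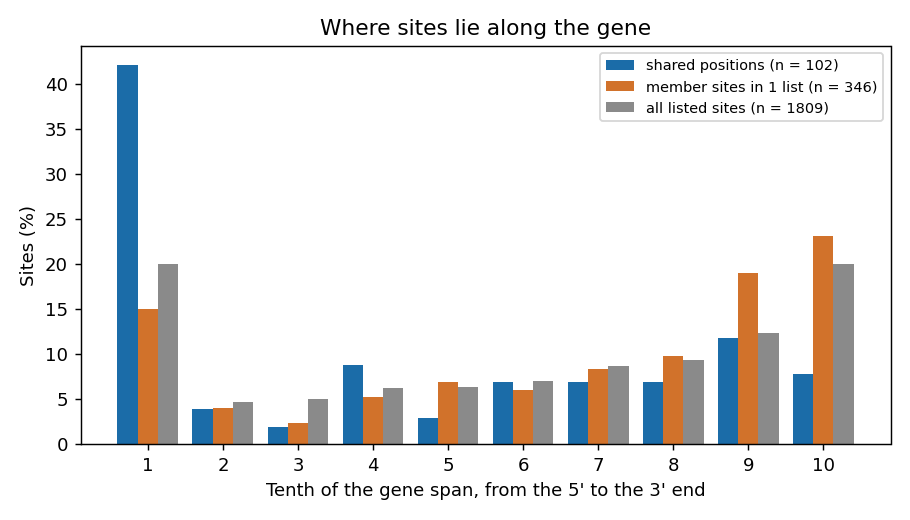
Percentage of sites (vertical axis) in each of 10 equal parts of the gene span from the 5′ to the 3′ end (horizontal axis) for shared positions, for positions of the same genes in 1 list, and for all listed sites. Shared positions stand at 42.2% in the first bin and 7.84% in the last, the genes' other positions at 15.03% and 23.1%.

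All 385 distinct sites of these genes with a known annotated gene strand lay on that strand. So did all 1529 such sites of all listed genes, so this is not particular to the genes in both lists. The genes were 212 protein-coding, 4 long noncoding and 3 pseudogenes, and 3 had no RefSeq match by name: MT-RNR1 and the unnamed genes ENSG00000218175 and ENSG00000254339. Pseudogenes, together with genes whose symbol a pseudogene carries, made up 40.2% of the genes with a same position (exact interval 30.4% to 50.7%), 27.2% of those with different positions (19.6% to 35.9%) and 28.0% of all listed genes. A read from one copy may align to another, and their part in the shared positions was not tested. In 31 of the 222 genes a listed site lay within the span of more than 1 gene, counted on either strand. The gene of origin is uncertain only where the overlapping genes share a strand, and such cases were not counted apart.

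The median span was 19681 bp for the genes with a same position and 33516 bp for the others, beside 27279 bp for all listed genes with a span. Among the shortest 25% of listed genes, 9.14% had a same position and 6.45% only different ones. The longest 25% had 4.30% and 9.41%. Genes with more sites were in both lists more often: of genes with a single WT site 22.4% were in both lists, and of those with 2 or more 45.6% (exact interval 35.8% to 55.7%).

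The shared positions with the highest scores are given first. The score is the authors' own value for each site, with a formula the files do not give, and it ranks sites within a list. RPL35, of the large ribosomal subunit, had its shared position at 124861529 of chromosome 9, 10.5% of the way along the gene (309.7 in WT and 237.1 in NAT10 KD). RPS9, of the small subunit, had 119.9 and 80.0 at 4.55% of the span. For TOMM5, a subunit of the mitochondrial import pore, the scores were 48.7 and 54.2, at 2.44%. These 3 genes held the highest shared scores in both lists, all in the 5′ part of the gene, and all 3 have a pseudogene named after them.

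HNRNPD, which binds AU-rich RNA, had 34.8 in WT and 26.3 in NAT10 KD at 0.42% of its span. FOXD3-AS1, a noncoding RNA beside the pluripotency factor gene FOXD3, had 29.4 and 26.2 at 84.9%. PRDX5, a peroxiredoxin, had 29.9 and 22.2, and its site is the C shown above, 23 bases after a start. PABPN1, which binds poly(A) tails in the nucleus, had 24.5 and 21.8 at 57.4% of the span. The scores of MRPS34, of the mitochondrial ribosome, were 32.3 and 19.5 at 51.6%. High scores were thus not limited to the 5′ end.

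MT-RNR1, the small rRNA of mitochondria, had 18.8 in WT and 31.7 in NAT10 KD at position 734 of the mitochondrial genome. The scores of FBL, the rRNA 2′-O-methyltransferase fibrillarin, were 28.4 and 14.5. MDK, the growth factor midkine, had 11.8 and 16.5, and PCBP2, a poly(C)-binding protein, 11.3 and 8.67. HMGA1, a chromatin architectural protein, had 24.3 and 8.65. DRAP1, a subunit of the general transcription repressor NC2, had 7.73 and 9.13 at 3.74% of its span. The last of the 15 same-position genes with the highest lower score was TAF1D, which belongs to the SL1 complex of rDNA transcription, with 7.40 and 16.3 at one shared position and 1.46 and 1.40 at another.

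At 60 of the 104 shared positions the scores differed by a factor of 1.5 or less. The median difference, NAT10 KD minus WT, was -0.24 score units. By within-list percentile the WT value was the higher at 59 positions and the NAT10 KD value at 44, closer to even than by the score itself, where 63.5% were higher in WT. At 17 positions both scores were under 2. The score is what admitted a site to each list, so these values are described and not tested.

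The positions that leaned furthest toward WT include MTFP1, a mitochondrial fission protein (5.28 in WT and 1.82 in NAT10 KD), and PGD, an enzyme of the pentose phosphate pathway (5.55 and 1.92). HMGA1 came next in ratio. PA2G4, a growth regulator that binds ribosomes, had 7.05 and 2.61, and NME1-NME2, a read-through of 2 nucleoside diphosphate kinase genes, 4.47 and 1.71. The snoRNA host SNHG5 had 12.9 and 5.64. BCCIP, a partner of BRCA2, had 5.597 and 2.52, and RBBP4, a histone chaperone, 7.12 and 3.26. Of these 8 positions, 5 lay in the 5′-most 10% of the gene: MTFP1, PA2G4, NME1-NME2, BCCIP and RBBP4.

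Toward NAT10 KD stood PCNA, the replication clamp (1.83 in WT and 4.91 in NAT10 KD, 94.7% along the gene), and 1 of the 3 shared positions of the pseudogene RPL23AP42 (1.66 and 4.31). CERS2, a ceramide synthase, had 3.06 and 6.97 at 88.8% of its span. HMGN1, a nucleosome-binding protein, had 2.29 and 5.18 at 87.8%. TAF1D followed, then MECOM, a zinc finger transcription factor, with 2.29 and 4.56, SPTBN1, a spectrin, with 2.98 and 5.64 at 92.8%, and PRKAR1A with 2.02 and 3.81 at 83.0%. Only RPL23AP42 of these 8 positions lay in the 5′-most 10% of its gene. Both sets of 8 were taken from the ends of the ratio, so their positions are a description.

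**Figure D3:**
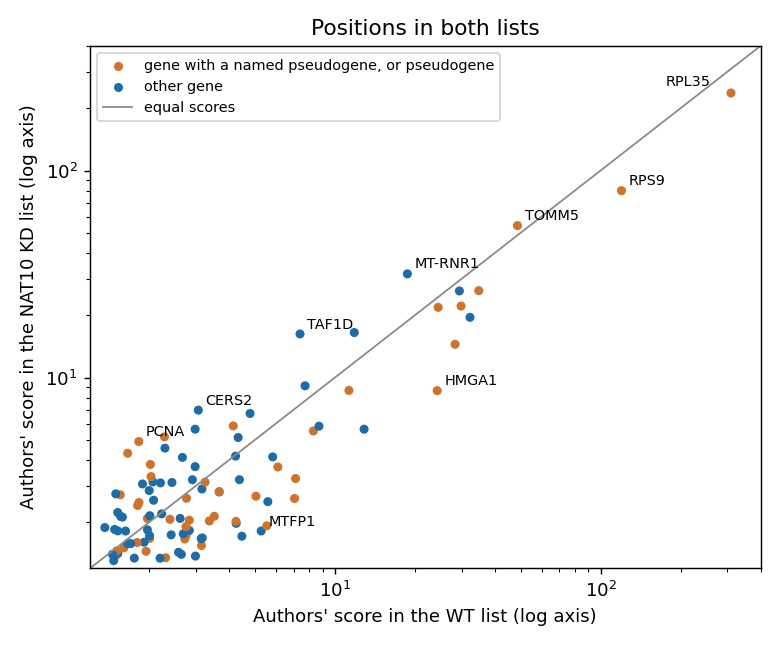
The authors' score of each of the 104 shared positions in the WT list (horizontal, log axis) and the NAT10 KD list (vertical, log axis), coloured by whether the gene is a pseudogene or has one named after it. The line marks equal scores. RPL35, RPS9 and TOMM5 lie at the upper right, HMGA1 and MTFP1 below the line, and PCNA, CERS2 and TAF1D above it.

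Several shared positions were found in 6 genes. RPL23AP42 had 3 (positions 161429400, 161429561 and 161429564 of chromosome 3). MLF2 had 4.25 in WT and 1.98 in NAT10 KD near its 5′ end and 2.23 and 2.20 at 63.1% of the span. ACTR3, a subunit of the actin-nucleating Arp2/3 complex, had 2.76 and 1.73 at 0.46% of the span and 1.61 and 1.51 at 61.1%. PTS had 2.67 and 4.12 at the first C of its pair and 3.67 and 2.80 at the second, so adjacent bases ordered the genotypes differently. PRKAR1A and TAF1D are the others. The 3 RPL23AP42 positions, the first of ACTR3, and those of MECOM and NME1-NME2 lie over more than 1 gene, counted on either strand.

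Beyond the shared positions, 34 of the 97 genes carried a further 48 sites found in 1 list. Of these, 8 lay within 10 bp of a site of the other list and 14 within 100 bp, and the median distance was 712 bp. The histone chaperone gene ANP32B and MZT2A, a spindle pole component, had a WT site 1 bp from a site in the other list. HSPB1, a small heat shock protein, had sites 1 bp apart, at 76303074 of chromosome 7 in WT (2.63) and 76303075 in NAT10 KD (1.48). RPL35 had its second WT site, at 52.6, 3598 bp from the shared one.

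In the 125 genes with sites only at different positions, the nearest WT and NAT10 KD sites were a median of 2547 bp apart on the genome (25th to 75th percentile, 376 to 9014 bp). The distance includes introns, since exons were not used. It was 1 bp in 4 genes, at most 10 bp in 11 (8.80%, exact interval 4.48% to 15.2%), at most 100 bp in 23 (18.4%) and at most 1000 bp in 45 (36.0%). A further 50 genes lay over 1000 and up to 10000 bp, and 30 beyond. Relative to the gene span the median distance was 11.8%.

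**Figure D4:**
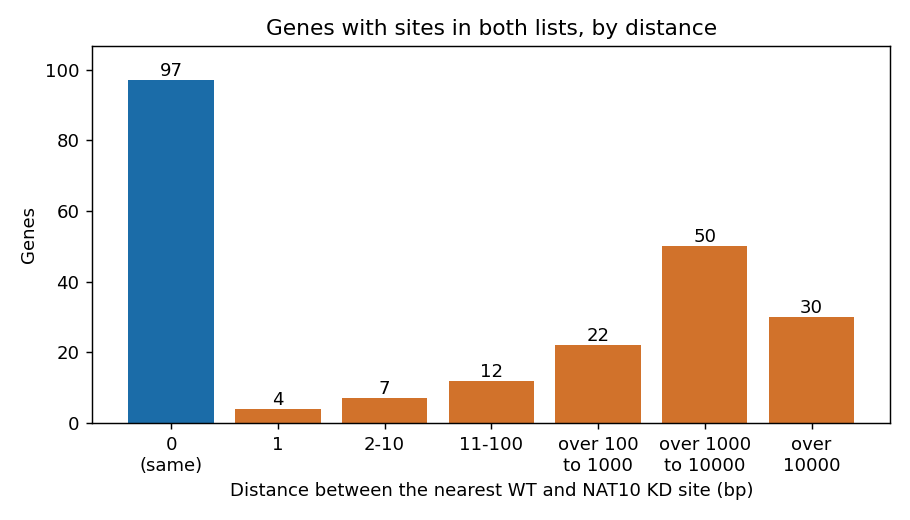
Number of genes (vertical axis) by the distance between their nearest WT and NAT10 KD site (horizontal axis, bp, in bins of unequal width). The 97 genes at distance 0 share a position, and the 125 others are spread from 4 genes at 1 bp to 30 genes over 10000 bp, with the most, 50 genes, over 1000 and up to 10000 bp.

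The genes just outside the same-position class had sites at adjacent positions. NDUFS3, a core subunit of respiratory complex I, had 2.57 at 47579298 of chromosome 11 in WT and 2.69 at 47579299 in NAT10 KD. ZMYND8, a reader of histone marks, had 1.43 and 3.71, CUTC, named for copper homeostasis, 1.43 and 2.03, and PDCD6, a calcium-binding protein, 1.47 and 1.45. AASS followed at 2 bp (1.96 and 2.16), IFT52, of the intraflagellar transport machinery, at 3 bp (1.73 and 1.62), and PCMT1, which repairs damaged aspartyl residues, at 4 bp (1.35 and 2.33). The lowest same-position scores for comparison were 1.36 in WT and 1.31 in NAT10 KD. Outside the start windows the bases at these positions were not read.

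At 6 bp stood CCAR1, a transcriptional coactivator (2.49 in WT and 1.47 in NAT10 KD), and the unnamed gene ENSG00000218175 on chromosome 2. TNKS1BP1, a tankyrase-binding protein, was at 8 bp (1.45 and 2.13), with another NAT10 KD site scoring 1.39. GTF3C6, a subunit of the RNA polymerase III factor TFIIIC, had the strongest pair of all 125 genes at 9 bp: 6.97 at 110958814 of chromosome 6 in WT and 11.02 at 110958805 in NAT10 KD. FAUP1, a pseudogene of the ribosomal protein gene FAU, was at 17 bp (3.018 and 3.003). The median of the lower best score was 1.53 in the 23 genes within 100 bp and 1.51 in the other 102, beside 2.08 in the genes with a same position.

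The largest distances, in bp, crossed from 41.3% of the gene span (AFDN) to 98.7% (SAE1). APP, the amyloid precursor protein, had a WT site at 0.15% of its span (2.22) and NAT10 KD sites at 74.1% (2.42) and 99.9% (2.90), 214969 bp or more away. SAE1, a subunit of the SUMO-activating enzyme, had a WT site at 0.19% of the span scoring 6.33 and a NAT10 KD site at 98.9% scoring 1.48. UBE2K, a ubiquitin-conjugating enzyme, had 10.4 at 0.29% in WT and 2.20 at 68.0% in NAT10 KD. PDLIM1, an actin-associated protein, had 1.87 at 0.18% in WT and 1.46 at 98.0% in NAT10 KD. In these 4 genes the WT site was the one near the start. AFDN, an adherens junction protein (93.4% in WT and 52.1% in NAT10 KD), and PRRC2C (98.8% and 43.9%) had no site near the start.

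SLC2A1, the glucose transporter GLUT1, ran the other way, with a WT site at 86.9% of the span (1.35) and 3 NAT10 KD sites within 0.26% of it, of which the strongest scored 9.16. Among the 123 genes with both positions in a span, the NAT10 KD site of the nearest pair was the more 3′ in 70 and the WT site in 53. Both sites lay in the same 25% of the span in 66, and in 41 this was the 3′-most 25%. Positions of the pair correlated across these genes at a Pearson r of 0.35 (Spearman rho 0.34), and at an r of 0.15 once genes within 100 bp were left out. The sites of a pair share their gene and were picked as the nearest, so the values are a description across genes.

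Genes with many sites show how the lists differ within one transcript. SPTBN1 had 4 WT sites and 2 NAT10 KD sites with 1 in common. BUD23, the methyltransferase of small-subunit rRNA, had a WT site of 6.23 at 1.22% of the span, and its WT site at 97.8% lay 202 bp from the NAT10 KD site (1.91 and 2.77). NUMA1, a spindle organiser, had 3 WT and 2 NAT10 KD sites between 80.2% and 86.0% of the span. In MYBBP1A, a nucleolar regulator of transcription, 1 WT and 1 NAT10 KD site lay 75 bp apart near the 3′ end (1.33 and 1.89), and 2 further NAT10 KD sites lay upstream. CHAF1A, of the replication-coupled histone chaperone CAF-1, had 1 WT and 3 NAT10 KD sites at scores of 1.40 to 1.65.

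Counted by gene group, with groups assigned by symbol, 107 of the 222 genes belonged to at least 1 of 17 groups, 61 with a same position and 46 without. The mitochondrial ribosome, import and respiration group had 12 of its 57 listed genes in both lists (21.1%, against 14.7% of all listed genes). The share of all listed genes is the comparison for every group below. Of the 12, 10 had a same position, beside 97 of all 222 genes. The 10 include the peroxiredoxin gene PRDX5, which was put in this group though it has none of the named functions. The cytosolic ribosomal proteins had 4 of 15 (26.7%). These were RPL35, RPS9 and RPL9 (4.25 in WT and 2.02 in NAT10 KD) at the same position and RPL41 729 bp apart (7.12 and 1.98). Translation factors had 2 of 17 (11.8%), both at different positions: EIF4G2 (4.25 and 1.57, 1904 bp apart) and EIF4B (1.37 and 1.94, 1843 bp). Nucleolar and assembly factors had 3 of 12 (25.0%): FBL and TAF1D at the same position and TCOF1, the treacle protein, 686 bp apart (1.38 and 2.47).

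Splicing and RNA-binding genes had 11 of 71 in both lists (15.5%), near the share of all genes, with 7 at the same position, HNRNPD, PABPN1 and PCBP2 leading. Those at different positions include HNRNPA2B1 (2.26 in WT and 2.10 in NAT10 KD, 403 bp), the core spliceosome protein gene PRPF8 (1.60 and 1.99, 2017 bp) and LARP1, a regulator of ribosomal protein mRNAs (2.15 and 1.54, 4033 bp). Histones and chromatin factors had 9 of 30 (30.0%). H3-3B, a histone H3.3 gene, had 8.72 and 5.83 at 2.03% of its span, beside HMGA1 and RBBP4. SMARCA4, the BAF complex ATPase, had sites 24730 bp apart, CHAF1A 201 bp and SUPT16H, of the histone chaperone FACT, 6692 bp. Histone and DNA modifiers had 3 of 19 (15.8%): HDAC2 (2.69 and 1.76) and DNMT3B (2.99 and 1.37) at the same position and NSD2 1303 bp apart (1.49 and 1.44).

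The pluripotency group had 6 of 12 listed genes in both lists, in a group too small to set against others. FOXD3-AS1, DNMT3B and SFRP2, a secreted WNT modulator (1.53 in WT and 1.41 in NAT10 KD), had a same position. POU5F1, the core factor OCT4, had 2.09 and 2.07 at sites 274 bp apart, L1TD1, an RNA-binding protein of stem cells, 1.41 and 1.42 at 135 bp, and PODXL, a surface sialomucin, 1.53 and 1.53 at 2474 bp. All 3 pairs lay toward the 3′ end, the most 5′ of their sites at 89.8% of the span. Of 14 markers of embryonic stem cells 9 were listed and 5 were in both lists. Of 12 symbols chosen for other cell types, with T and TBXT naming the same gene, 4 were listed. THY1 alone of these was in both, and it is not particular to other cell types, since embryonic stem cells carry it too. A site list does not measure expression, so it does not check the cell type.

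Cell cycle and replication genes had 8 of 48 (16.7%). PCNA, LIG1, a DNA ligase (2.07 in WT and 3.14 in NAT10 KD), and the helicase gene MCM7 (1.63 and 1.82) were at the same position. RAD21, of cohesin, had sites 40 bp apart (2.15 and 3.18), and TOP2A, a topoisomerase, 20258 bp (1.60 and 1.70). Chaperones, proteasome and ubiquitin genes had 12 of 52 (23.1%), divided evenly between the classes. RBX1, a cullin ligase subunit, had 5.05 and 2.67, CCT4, of the TRiC chaperonin, 1.81 and 2.41, and HSPA5, the ER chaperone BiP, 2.75 and 1.91. DNAJB1, an Hsp40 chaperone, had 4.28 and 2.78 at 47 bp. PSMB2, a proteasome subunit, had 2.62 at 0.05% of the span and 2.57 at 76.6%.

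Metabolic enzymes and carriers had 11 of 38 (28.9%), 4 at the same position. SLC7A5, an amino acid exchanger, had 2.77 in WT and 2.61 in NAT10 KD, SLC16A1, a lactate carrier, 2.83 and 2.05, and TXNRD1, a thioredoxin reductase, 2.84 and 1.83. TPI1 (602 bp), ACLY (30651 bp) and HK1 (23694 bp) had sites at different positions. Transcription machinery and zinc finger genes had 12 of 53 (22.6%), divided evenly, with ZC3H15 (5.84 and 4.14) and ZNF146 (2.91 and 3.21) at the same position beside TAF1D. ZNF589 (1527 bp) and TCF3 (3704 bp) joined GTF3C6 among the others.

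Trafficking and nuclear transport genes had 7 of 47 (14.9%). Of these, NUP93 (1.59 in WT and 2.12 in NAT10 KD), NUP160 (1.53 and 1.82) and ARL1 (2.65 and 1.40) had a same position. AP1S1 (4198 bp), RAB34 (1020 bp) and IPO5 (5928 bp) did not. The cytoskeleton and adhesion group had 5 of 46 (10.9%). These were SPTBN1, TUBA1C (2.62 and 2.09), ACTR3 and ITGB5 at the same position, and ITGB3BP, a centromere protein that belongs by name, 18433 bp apart. Noncoding RNAs and snoRNA hosts had 3 of 19 (15.8%), with FGD5-AS1 at 91 bp beside FOXD3-AS1 and SNHG5. Signalling genes had 2 of 32 (6.25%), MDK and PRKAR1A, and mitochondrially encoded RNAs 1 of 2. The groups were chosen with earlier results of these data known, and their shares are counts without a test.

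**Figure D5:**
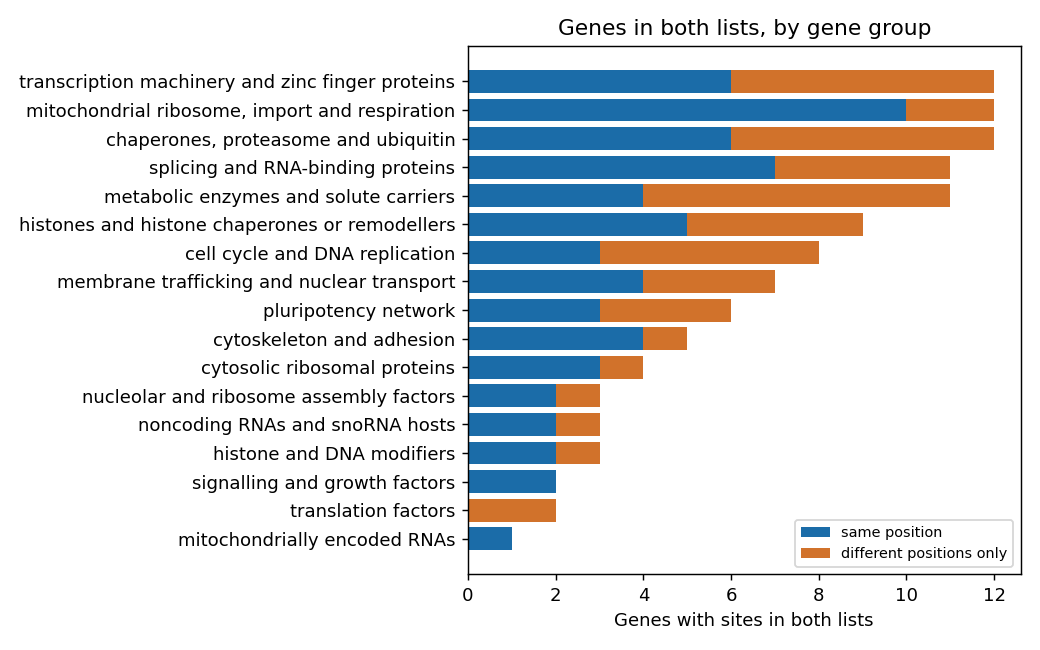
Number of genes with sites in both lists (horizontal axis) in each of 17 gene groups, divided into genes with a same position and genes with different positions only. The mitochondrial group has 10 and 2, translation factors 0 and 2, and metabolic enzymes and carriers 4 and 7.

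Over all their sites, the genes with a same position had higher median scores, with the highest medians at the shared positions. The WT sites of these genes had a median of 2.60, their NAT10 KD sites 2.14. The shared positions alone had 2.76 and 2.54, and the sites of these genes in 1 list 1.88 and 1.49. The genes with different positions had medians of 1.65 and 1.70, and genes in 1 list 1.65 and 1.67. In same-position genes, the 1.88 of WT sites in 1 list lay above these WT medians. The 1.49 of their NAT10 KD counterparts lay below the NAT10 KD medians. Scores of 5 or more were found at 27 of 132 WT sites in same-position genes, 8 of 152 in different-position genes and 23 of 721 in genes of WT only. In NAT10 KD the counts were 24 of 124, 2 of 153 and 18 of 673. In median score, the genes without a same position were close to genes of 1 list. The score is what admitted a site to each list, so the classes depend on it. These values are described and not tested.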

How the data were processed

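Chemical ac4C sequencing was done on treated and input RNA of both genotypes. Per the submitters' processing notes, fastp 0.21.1, STAR 2.7.8a, SAMtools 1.12 and build hg38 were used; the caller, its filters and any pooling were not given in the sources used here. Per the file headers, the authors deposited 1 list per genotype with coordinates and a score per site. The lowest scores, 1.30155 in WT and 1.30173 in NAT10 KD, are close to 1.30103, the −log10 of 0.05, and the score may thus be a −log10 p-value, which no source states. The deposited start and end coordinates span 1 base, and the end was used as the 1-based position.

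Genes were matched by Ensembl identifier, and sites by chromosome, position and strand with a tolerance of 0 bp. Spans and types were looked up by symbol or synonym in RefSeq's gene table (GRCh38.p14), and strands and sequences in its start windows. Shares carry exact Clopper-Pearson 95% intervals, which cover counting error only. No test between genotypes was run, since membership of the lists is what chose the genes and no replicate values were used. The code that pairs sites was checked on simulated lists. Named genes were the 15 same-position genes with the highest lower score, those with several shared positions, the 12 shortest and 6 longest distances, the 5 highest-scoring different-position genes, up to 3 per group and class, genes with 3 or more sites, the 8 largest score ratios each way, readable sites and markers; a part of these is given, and others (ANP32B, MZT2A, ITGB5) complete a count. Members and lists were chosen with earlier results of these data known. Python 3.11.15, pandas 2.3.3, NumPy 2.4.6, SciPy 1.17.1 and matplotlib 3.10.9 were used.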

Additional observations from a re-analysis of the deposited data

How the results depend on the processing

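With only sites scoring at least 2, the lists shared 84 genes in place of 222 and 55 in place of 97 had a same position. The balance turned, from 97 against 125 to 55 against 29, so that 65.5% had a same position, and the cause was not tested. Leaving out pseudogenes and genes with a pseudogene named after them left 149 genes in both lists, 58 of them (38.9%) with a same position. Reading bases only in windows of the site's own gene left 15 of the 26 positions, all C. The median distance of 2547 bp was 11.8% as a share of the gene span, another unit for the same pairs. The other alternatives tried kept their value within a factor of 1.5 or, for the share of shared positions higher in WT, inside its interval. Among them, a tolerance of 1, 10 or 100 bp gave 101, 108 or 120 genes with a same position, and without genes that have a copy 55.7% of shared positions scored higher in WT. Between the highest-scoring sites of each list the median distance was 3615 bp. At a score of at least 2, the median position of the genes' WT sites was 39.8% of the span, in place of 57.1%. For NAT10 KD sites it was 49.5%, in place of 61.3%. The alternatives for position and for bases were added after seeing the data. Leaving out a replicate was not run, since the lists hold no values per replicate. No paired analysis was possible because the lists carry no replicate numbers. Depth is unknown, which limits what a missing position can show.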
